A study of Mus musculus with 20 samples.

Results

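Both arms of 5 miRNA precursors known from lymphocytes and from inflammatory signalling, miR-150, miR-342, miR-146a, miR-146b and miR-155, were followed through chemically induced skin tumours of the mouse. The 10 arms were taken by name from the 1137 mature miRNAs in the deposited count table. SOLiD sequencing of small RNA covered 20 skin samples from mice of the inbred strain FVB/N, with 5 libraries in each of 4 groups. cSCC (cutaneous squamous cell carcinoma), papilloma (a benign tumour) and hyperplastic (thickened) skin all came from DMBA/PMA treatment, in which DMBA, a mutagen, initiates tumours and PMA, a phorbol ester, promotes their growth. Healthy skin received acetone, the solvent, so that against it the lesion cannot be told apart from the treatment itself. No label ties a sample to a mouse of its own, and p-values may therefore measure technical spread between samples. Not given in the sources used here are age, sex and length of treatment.

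miRNAs guide Argonaute to messenger RNAs that pair with the seed, a short stretch near the 5′ end of the mature strand, and lower the output of those messages. miR-150 is abundant in mature, resting B and T lymphocytes and targets the transcription factor Myb. miR-342 lies in an intron of Evl and is well known from blood cells. NF-kB induces miR-146a, which restrains the pathway again through Traf6 and Irak1, and miR-146b carries the same seed. miR-155 is processed from the non-coding RNA of Mir155hg, is induced in activated lymphocytes and macrophages, and targets Socs1 and Inpp5d. None of these miRNAs is restricted to immune cells, and keratinocytes also produce miR-146a and miR-155 under stimulation.

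The mature strands of 4 major arms are printed here because miR-146a-5p and miR-146b-5p are told apart by their last bases alone, while miR-155-5p and miR-342-3p have seeds of their own. Capitals mark the seed, bases 2 to 8 from the 5′ end, and the sequences are from RefSeq (GRCm38.p6).
mmu-miR-146a-5p: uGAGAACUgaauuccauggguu
mmu-miR-146b-5p: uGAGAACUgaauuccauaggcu
mmu-miR-155-5p: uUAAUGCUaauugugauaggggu
mmu-miR-342-3p: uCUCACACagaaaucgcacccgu
Counted from 1 at the 5′ end, miR-146b-5p differs from miR-146a-5p by G18A and U21C, 2 of 22 bases. The treatment of reads that match both is not given in the sources used here, so the split between these 2 strands is uncertain to that extent. RefSeq held 9 of the 10 arms, with 8 different seeds, and no other mature miRNA of RefSeq shared a seed with them.

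The 5 precursors lie on different chromosomes. In the deposited table (mm9), miR-150-5p is placed at 52377131 to 52377154 on chromosome 7, miR-342-3p at 109896889 to 109896913 on chromosome 12 and miR-146a-5p at 43187936 to 43187959 on chromosome 11. miR-146b-5p is placed at 46417279 to 46417302 on chromosome 19 and miR-155-5p at 84714387 to 84714411 on chromosome 16. In GENCODE M21 on GRCm38, miR-342 sits in an intron of the protein-coding gene Evl and miR-146b in an intron of Mfsd13a, both on the sense strand. miR-155 sits in an exon of the long non-coding RNA Mir155hg, and the other two overlap no annotated gene but their own miRNA gene.

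Depth and scaling limit every comparison below. Mature miRNA counts per library were 2884177 to 4921719 in healthy skin, 3142228 to 6904298 in hyperplastic skin, 1060615 to 2370313 in papillomas and 1614803 to 2903657 in cSCC. Levels are given as CPM, counts scaled to a common library size with TMM factors, which assume that most miRNAs do not differ between libraries. The F test across the 4 groups, given below, called 56% of all tested and 63.5% of abundant miRNAs different. That is at odds with the assumption, so levels and fold changes depend on the scaling chosen. Levels of single libraries use the scaling of the first fit unless stated. Of the 1137 miRNAs, 850 passed the filter on low counts and were tested in a single fit with the quasi-likelihood test of edgeR (p-values after Benjamini-Hochberg adjustment, threshold 0.05). A second fit used the 293 abundant miRNAs alone (mean of at least 50 CPM). Its log2 fold changes against healthy skin exceeded those of the first fit by 0.71 at the median in cSCC and 0.64 in papilloma, but by 0.08 in hyperplastic skin. A fall in a tumour that was called in the first fit alone therefore depends on the scaling, and both values are given for members in both fits. Scarce miRNAs (20 or fewer counts per library on average) held 0.0948% of counts in healthy skin and 0.111% in hyperplastic skin. They held 0.289% in papillomas and 0.202% in cSCC. Papilloma 6, the library with the fewest mature miRNA counts, had the largest TMM factor, 1.665. The part of scarce miRNAs and depth in the shift was not tested. In bulk skin, fewer cells of a type and less RNA per cell cannot be told apart. The keratinocyte miRNAs, the arms of miR-203 and miR-205, summed to at least 71300 CPM in every library.

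Of the 10 arms, 8 passed the filter. miR-155-3p and miR-146a-3p did not, with means of 3.15 and 7.8 counts per library, and miR-155-3p had 0 counts in 3 libraries. Each precursor was read almost wholly from its major arm: the 5p arm made up 99.49% to 99.98% of miR-150 counts, 95.3% to 99.8% of miR-146a and 95.6% to 98.9% of miR-146b counts, and the 3p arm 99% to 99.9% of miR-342 counts. The 5p arm of miR-155 made up 79.5% to 100%, where the lowest share came from cSCC 1 with 35 counts of the 5p arm and 9 of the 3p arm. The minor arms miR-146b-3p, miR-342-5p and miR-150-3p averaged 64.25, 19.65 and 9.2 counts per library and passed the test in none of the 6 comparisons between pairs of groups. The 5 major arms thus carry the results.

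**Figure D1:**
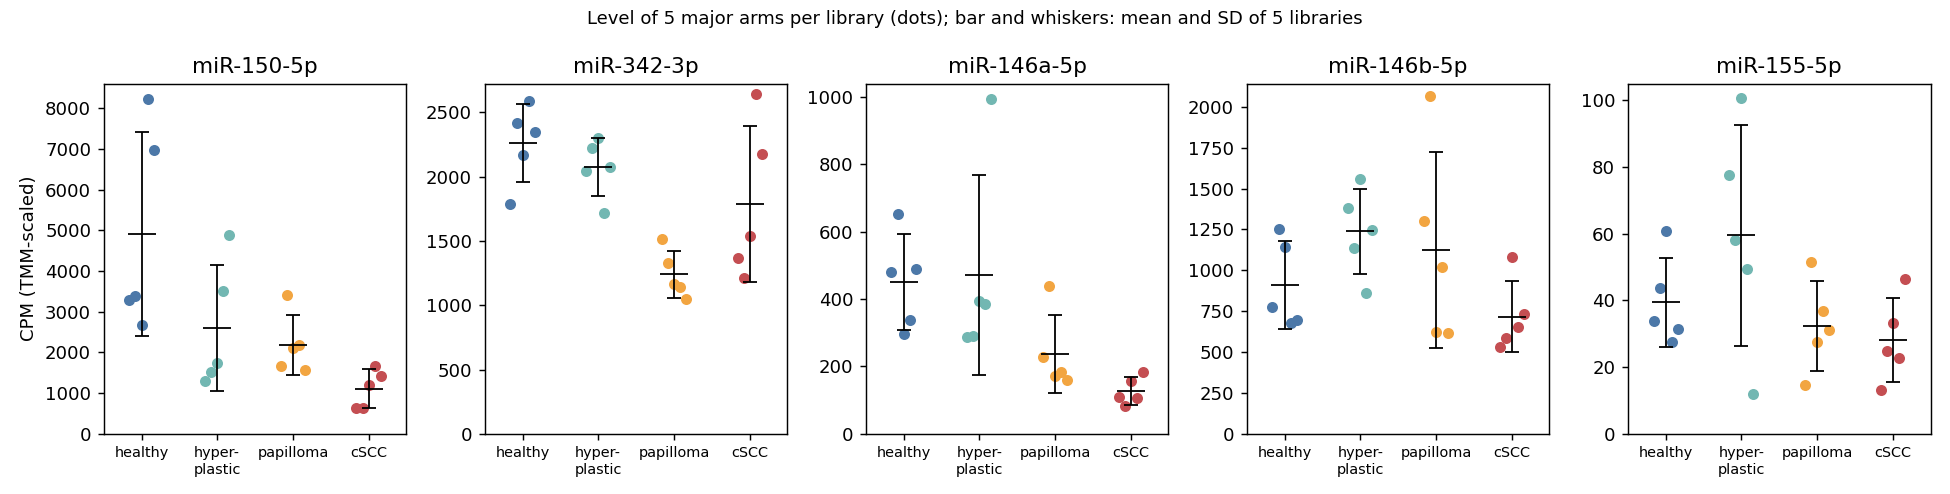
Levels of the 5 major arms in CPM (TMM-scaled, linear axes from 0), with 1 dot per library and the mean and SD of 5 libraries as bar and whiskers. The cSCC libraries lie below all healthy libraries for miR-150-5p and miR-146a-5p, whereas miR-155-5p overlaps in all groups.

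miR-150-5p, the miRNA of resting lymphocytes, was lowest in carcinomas. It stood at 3300, 3390, 2678, 8231 and 6968 CPM in the 5 healthy libraries and at 1305, 1519, 1747, 3519 and 4894 CPM in hyperplastic skin. Papillomas had 1672, 3416, 2105, 2178 and 1576 CPM, and cSCC 628.8, 625.9, 1194, 1671 and 1430 CPM. Every carcinoma thus lay below every healthy library, while hyperplastic skin and papillomas overlapped with healthy skin and with carcinomas. The high values of healthy skin came from libraries 5 and 7, and those of hyperplastic skin from libraries 7 and 8. Means were 4914 ± 2510, 2597 ± 1560, 2189 ± 734 and 1110 ± 472 CPM (SD, n = 5 each) in healthy skin, hyperplastic skin, papilloma and cSCC. Neighbours in that order did not pass after adjustment (edgeR adjusted p = 0.506, 0.645 and 0.112 in turn). Before adjustment, the edgeR p was 0.0243 for hyperplastic against healthy skin and 0.0173 for cSCC against papilloma.

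In cSCC against healthy skin miR-150-5p fell, with a log2 fold change of -2.15 ± 0.40 (SE; edgeR adjusted p = 0.000108), and the call also held among abundant miRNAs (-1.42 ± 0.35, adjusted p = 0.00183), where the groups again did not overlap. In papilloma against healthy skin the fall was called in the first fit (-1.17 ± 0.39, adjusted p = 0.0176) and not among abundant miRNAs (-0.49, adjusted p = 0.248). It also lost its call without healthy 5, the highest library. In cSCC against hyperplastic skin the value was -1.23 ± 0.39 (edgeR adjusted p = 0.012) and -0.58 among abundant miRNAs (adjusted p = 0.165), and the call ended without hyperplastic 7, hyperplastic 8 or cSCC 2.

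Hyperplastic skin against healthy skin gave a log2 fold change of -0.92 ± 0.38 for miR-150-5p, which did not pass (edgeR adjusted p = 0.506). On the first principal component of the abundant miRNAs and the members, hyperplastic 7 and 8 scored -14.09 and -13.04, within the healthy range of -14.21 to -8.05, and the other 3 hyperplastic libraries scored -6.75 to -6.2. These are also the libraries with the most miR-150-5p in their group, so leaving them out lowers its level in hyperplastic skin by construction. Without them, a setting chosen after the data were seen, the log2 fold change of miR-150-5p was -1.76 in hyperplastic against healthy skin and -0.42 in cSCC against hyperplastic skin, values given as a description.

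miR-146a-5p, the NF-kB-induced brake on Toll-like receptor signalling, had its lowest levels in carcinomas as well. Healthy skin had 481.4, 653.1, 295.4, 336.1 and 488.7 CPM, and hyperplastic skin 287.1, 289.1, 395.2, 385 and 993.2 CPM. Papillomas had 227.5, 437.3, 172.7, 183.3 and 159.9 CPM, and cSCC 107.8, 81.2, 157.4, 107.4 and 182.3 CPM. All 5 carcinomas lay below all healthy and all hyperplastic libraries, and hyperplastic 8 and papilloma 3 stood far above the rest of their groups. Group medians were 481.4, 385, 183.3 and 107.8 CPM in stage order, and means ± SD (n = 5 each) were 469.9 ± 297 CPM in hyperplastic skin, 236.1 ± 115 in papillomas and 127.2 ± 41.4 in cSCC, with a mean of 450.9 CPM in healthy skin.

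Against healthy skin, miR-146a-5p fell in cSCC by a log2 fold change of -1.83 ± 0.36 (edgeR adjusted p = 0.000232; -1.11 and adjusted p = 0.00703 among abundant miRNAs). Scaled on abundant miRNAs, 1 carcinoma reached 242.2 CPM and the lowest healthy library was at 237.3 CPM, so that the groups overlapped there. Against hyperplastic skin it fell in cSCC by -1.89 ± 0.36 (adjusted p = 0.000192; -1.22 and adjusted p = 0.00449 among abundant miRNAs). Its decreases in papilloma were called in the first fit alone. They were -0.93 ± 0.35 against healthy skin (edgeR adjusted p = 0.0351; -0.33 and adjusted p = 0.418 among abundant miRNAs), a call that ended without healthy 2 or healthy 3. Against hyperplastic skin the decrease was -0.99 ± 0.35 (adjusted p = 0.0299; -0.44 and adjusted p = 0.312), a call that ended without hyperplastic 7, without hyperplastic 8 (-0.51) or without papilloma 1, 4 or 6. cSCC against papilloma gave -0.89 ± 0.36 (adjusted p = 0.116), and hyperplastic against healthy skin 0.06 ± 0.35 (adjusted p = 0.971).

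miR-146b-5p, which has the same seed, took another course. It stood at 773, 1253, 1144, 675.4 and 698.5 CPM in healthy skin and at 1381, 1138, 1557, 864.1 and 1248 CPM in hyperplastic skin. Papillomas had 1302, 2064, 624.3, 1018 and 614 CPM, and cSCC 528.9, 584.5, 1079, 655 and 731.8 CPM. Hyperplastic skin against healthy skin gave 0.45 ± 0.31 (edgeR adjusted p = 0.676), papilloma against hyperplastic skin -0.14 ± 0.31 (0.75) and cSCC against papilloma -0.65 ± 0.31 (0.209). All 4 groups overlapped, and the test across them did not pass (edgeR F test, adjusted p = 0.114; 0.0692 among abundant miRNAs). Papilloma against healthy skin gave 0.31 ± 0.31 (edgeR adjusted p = 0.412) and was called higher among abundant miRNAs (0.87 ± 0.29, adjusted p = 0.0184). cSCC against healthy skin gave -0.34 ± 0.31 (adjusted p = 0.356), with the opposite sign among abundant miRNAs (0.35, adjusted p = 0.289). Against hyperplastic skin it fell in cSCC by -0.79 ± 0.31 (edgeR adjusted p = 0.0381), a call not made among abundant miRNAs (-0.17, adjusted p = 0.636) and lost in 13 of the 20 fits that each leave out 1 library.

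The balance between these 2 strands does not depend on how libraries are scaled to each other. miR-146a-5p made up 38.4%, 34.3%, 20.5%, 33.2% and 41.2% of their joint counts in healthy skin and 17.2%, 20.3%, 20.2%, 30.8% and 44.3% in hyperplastic skin. In papillomas it made up 14.9%, 17.5%, 21.7%, 15.3% and 20.7%, and in cSCC 16.9%, 12.2%, 12.7%, 14.1% and 19.9%. The share was thus lower in each carcinoma than in each healthy library, by little in healthy 4, and hyperplastic 7 and 8 had the highest shares of their group. Mean shares were 15.2% ± 3.24 in cSCC, against 33.5% ± 7.93 in healthy skin (SD, n = 5 each). The log2 ratio of miR-146a-5p over miR-146b-5p differed by -1.48 ± 0.30 (SE) in cSCC against healthy skin (two-sided exact permutation test, p = 0.00794, 0.0331 adjusted over 96 ratio tests). In papilloma against healthy skin it differed by -1.18 ± 0.28 (exact p = 0.0238, adjusted p = 0.0737). This ratio was added after the levels had been seen.

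**Figure D2:**
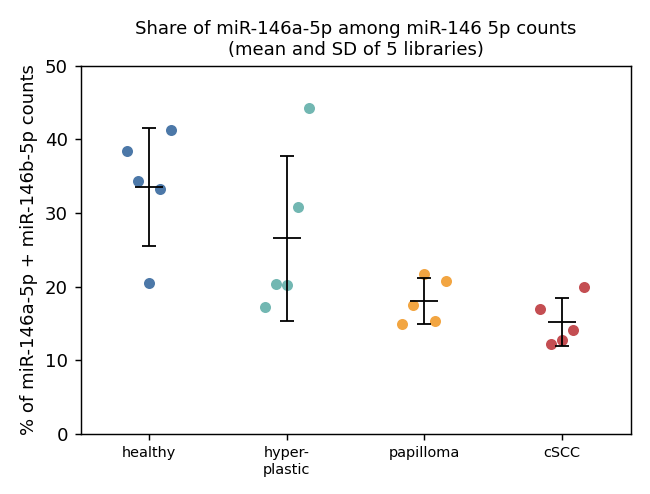
Share of miR-146a-5p among the counts of miR-146a-5p and miR-146b-5p in each library (dots, percent, axis from 0), with mean and SD of 5 libraries. The 5 carcinomas lie between 12.2% and 19.9%, just below the lowest healthy library at 20.5%.

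miR-342-3p, from the Evl intron, was lowest in papillomas rather than in carcinomas. Healthy skin had 1789, 2421, 2169, 2585 and 2348 CPM, and hyperplastic skin 2044, 2225, 2302, 1717 and 2079 CPM. Papillomas had 1516, 1325, 1168, 1144 and 1049 CPM, and cSCC 1365, 1210, 1535, 2644 and 2180 CPM. Each papilloma lay below each healthy and each hyperplastic library, and the carcinomas spanned from papilloma levels to the top of the healthy range, with cSCC 4 and 6 highest. Means in stage order were 2262 ± 304, 2073 ± 225, 1240 ± 183 and 1787 ± 605 CPM (SD, n = 5 each).

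Against healthy skin, miR-342-3p fell in papilloma by -0.87 ± 0.23 (log2, edgeR adjusted p = 0.00414), and against hyperplastic skin by -0.74 ± 0.23 (adjusted p = 0.0135). Neither fall was found among abundant miRNAs (-0.22, adjusted p = 0.318, and -0.19, adjusted p = 0.409), where papilloma and healthy libraries overlapped. cSCC against papilloma gave 0.53 ± 0.23 (edgeR adjusted p = 0.161) and was called higher among abundant miRNAs (0.57 ± 0.18, adjusted p = 0.0189). cSCC against healthy skin gave -0.34 ± 0.23 (adjusted p = 0.209), and 0.35 among abundant miRNAs (adjusted p = 0.0849), so that its sign depends on the scaling. Without cSCC 4 or cSCC 6 the first fit called it lower (-0.66 and -0.58). cSCC against hyperplastic skin gave -0.22 ± 0.23 (edgeR adjusted p = 0.447), and 0.38 among abundant miRNAs (adjusted p = 0.0746). Hyperplastic against healthy skin gave -0.13 ± 0.23 (adjusted p = 0.912).

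miR-155-5p, the activation-induced member, was the scarcest major arm and was too low for the abundant class. It had 33.74, 43.78, 60.76, 27.42 and 31.41 CPM in healthy skin and 77.62, 58.06, 100.6, 49.31 and 11.84 CPM in hyperplastic skin. Papillomas had 14.74, 51.4, 27.54, 36.93 and 31.18 CPM, and cSCC 13.05, 24.92, 33.22, 22.82 and 46.44 CPM. All groups overlapped, and hyperplastic skin held both the highest library, hyperplastic 5, and the lowest, hyperplastic 8 with 37 counts. Group means in stage order were 39.42 ± 13.4, 59.49 ± 33.2, 32.36 ± 13.4 and 28.09 ± 12.5 CPM (SD, n = 5 each), and successive stages did not pass (edgeR adjusted p = 0.676, 0.0967 and 0.838).

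Among the 6 comparisons miR-155-5p was called in cSCC against hyperplastic skin alone, where it fell by -1.09 ± 0.42 (edgeR adjusted p = 0.0354). That call was lost in 13 of the 20 fits that leave out 1 library and with library totals in place of TMM factors (-0.98, adjusted p = 0.109). cSCC against healthy skin gave -0.49 ± 0.42 (adjusted p = 0.334), papilloma against healthy skin -0.28 ± 0.41 (adjusted p = 0.583) and hyperplastic against healthy skin 0.60 ± 0.41 (adjusted p = 0.676). Papilloma against hyperplastic skin gave -0.88 ± 0.41 (adjusted p = 0.0967) and passed in 5 of the 20 fits without 1 library, such as without hyperplastic 8 (-1.10). Libraries held 35 to 383 counts of miR-155-5p, and the part of depth in the missing calls was not tested.

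**Figure D3:**
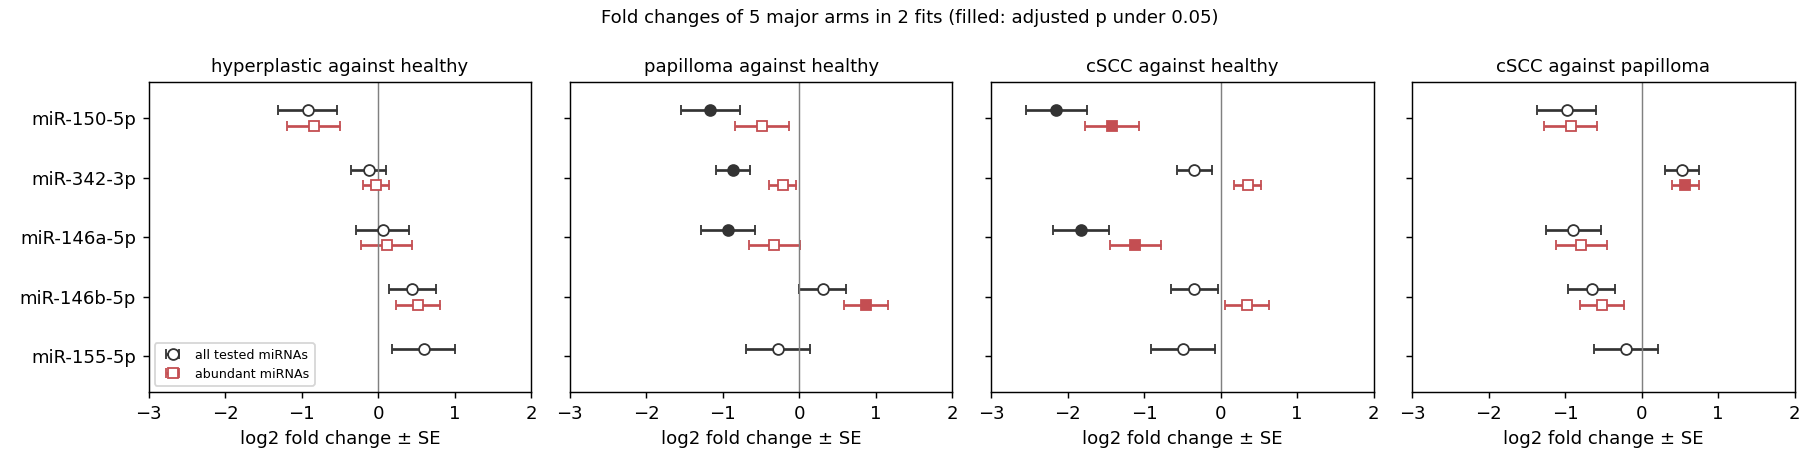
Log2 fold changes ± SE of the 5 major arms in 4 comparisons, from the fit of all 850 tested miRNAs (circles) and of the 293 abundant miRNAs (squares; miR-155-5p is not in that class). Filled symbols passed at an adjusted p under 0.05, and in cSCC against healthy skin miR-150-5p and miR-146a-5p passed in both fits.

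Counts of members called are given here beside the shares of all tested miRNAs, and no test compared them. Across the 4 groups, miR-150-5p, miR-146a-5p and miR-342-3p differed (edgeR F test, adjusted p = 0.000553, 0.000313 and 0.0115; 0.0103, 0.017 and 0.0432 among abundant miRNAs). That is 3 of the 8 tested arms, where 56% of all 850 miRNAs differed, and 3 of 4 abundant arms, where 63.5% differed. In cSCC against healthy skin 0 members rose and 2 fell, against 26.2% higher and 21.3% lower of all tested miRNAs. In papilloma against healthy skin 0 rose and 3 fell, against 24% and 20.7%. In papilloma against hyperplastic skin 0 rose and 2 fell (21.3% and 17.1% of all), and in cSCC against hyperplastic skin 0 rose and 4 fell (24.5% and 20.5% of all). Groups did not overlap for 2 of the 8 arms in cSCC against healthy skin (29.5% of all tested miRNAs) and for 1 in papilloma against healthy skin (27.6%). They did not overlap for 1 in cSCC against hyperplastic skin (28.4%) and for 1 in papilloma against hyperplastic skin (21.9%). In hyperplastic skin against healthy skin and in cSCC against papilloma all 8 arms overlapped, where 1.06% and 6% of all miRNAs did not.

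In hyperplastic against healthy skin 0 of the 8 tested arms passed edgeR or DESeq2, and 1, miR-150-5p, had an unadjusted p under 0.05 in edgeR. Over all 850 miRNAs 0% passed there. In cSCC against papilloma 0 of 8 passed either tool, and 4 (miR-150-5p, miR-342-3p, miR-146a-5p and miR-146b-5p) had an unadjusted p under 0.05. Of all tested miRNAs 6.82% were higher and 4.71% lower in that comparison. Among abundant miRNAs, with 4 members tested there, the counts were 0 higher and 2 lower in cSCC against healthy skin (36.5% and 25.9% of all 293) and 1 higher and 0 lower in papilloma against healthy skin (29% and 20.5%). In cSCC against papilloma they were 1 higher and 0 lower (13% and 12.3%). In cSCC against hyperplastic skin they were 0 higher and 1 lower (27.6% and 23.2%), and in papilloma against hyperplastic skin 0 and 0 in edgeR (15.7% and 14%).

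Ratios between miRNAs of the same library were then compared, since they too do not depend on scaling. For the 4 arms miR-150-5p, miR-342-3p, miR-146a-5p and miR-155-5p, the 6 pairs and the ratio of each to miR-142-3p were tested. miR-142 is a miRNA of all blood cell lineages. This gave 10 ratios and 60 tests (two-sided exact permutation of the 252 splits of 5 against 5, for which the smallest possible p is 0.00794), computed on counts with 0.5 added. Of the 60 differences, 12 passed after adjustment (each with adjusted p = 0.0397), 11 of them in comparisons of cSCC. They share members and libraries and are not independent of each other.

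Carcinomas differed from healthy skin and papillomas in the ratio of miR-342-3p to miR-150-5p, both known from blood cells. This ratio in cSCC was 1.29 to 2.17, with a median of 1.58, against 0.314 to 0.81 in healthy skin and 0.388 to 0.907 in papillomas. Thus counts of miR-342-3p exceeded those of miR-150-5p in every carcinoma and in none of the healthy or papilloma libraries. The log2 ratio was higher in cSCC by 1.72 ± 0.31 (SE) against healthy skin and by 1.51 ± 0.24 against papilloma (exact p = 0.00794, adjusted p = 0.0397 each). In hyperplastic skin the ratio ran from 0.425 to 1.57, with a median of 1.32. Hyperplastic 1, 2 and 5 (1.57, 1.46 and 1.32) lay within the range of cSCC, also with more miR-342-3p than miR-150-5p. The comparison of cSCC with hyperplastic skin did not pass (exact p = 0.0714, adjusted p = 0.216).

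miR-146a-5p fell behind miR-342-3p in the same way. This ratio was 0.0407 to 0.103 in cSCC, against 0.13 to 0.27 in healthy skin, 0.13 to 0.478 in hyperplastic skin and 0.148 to 0.33 in papillomas. The log2 difference in cSCC was -1.43 ± 0.32 against healthy skin, -1.32 ± 0.32 against papilloma and -1.50 ± 0.41 against hyperplastic skin (exact p = 0.00794, adjusted p = 0.0397 each), with no overlap of groups. miR-146a-5p and miR-150-5p, by contrast, had a ratio of 0.0644 to 0.172 in cSCC and of 0.0409 to 0.193 in healthy skin, which did not differ beyond the spread (exact p = 0.571).

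Both also fell relative to miR-142-3p. There were 1.81 to 2.74 counts of miR-150-5p for each of miR-142-3p in cSCC, against 4.42 to 8.22 in papillomas, 6.03 to 8.28 in hyperplastic skin and 4.67 to 21.7 in healthy skin. Log2 differences in cSCC were -2.04 ± 0.42 against healthy skin, -1.57 ± 0.18 against papilloma and -1.67 ± 0.13 against hyperplastic skin (exact p = 0.00794, adjusted p = 0.0397 each). For miR-146a-5p the ratio was 0.134 to 0.361 in cSCC, 0.449 to 0.872 in papillomas, 0.907 to 1.52 in hyperplastic skin and 0.682 to 1 in healthy skin. Its differences in cSCC were -1.75 ± 0.28, -1.37 ± 0.31 and -2.29 ± 0.30 against healthy skin, papilloma and hyperplastic skin in turn (exact p = 0.00794, adjusted p = 0.0397 each). It also differed in papilloma against hyperplastic skin, by -0.92 ± 0.22 (exact p = 0.00794, adjusted p = 0.0397), a difference of -0.90 with an exact p of 0.0714 when miR-142-5p took the place of miR-142-3p.

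Among the 60 tests, none of the ratios that hold miR-155-5p passed the adjustment (the smallest exact p was 0.0159). The log2 ratio of miR-155-5p over miR-146a-5p was higher in cSCC than in healthy skin by 1.28 ± 0.38 (exact p = 0.0159, adjusted p = 0.0733), and that over miR-150-5p by 1.57 ± 0.57 (exact p = 0.0317, adjusted p = 0.119). The ratio of miR-342-3p to miR-142-3p ran from 2.76 to 4.36 in cSCC, inside the range of 2.53 to 7.03 in healthy skin (exact p = 0.341). That depends on the arm of miR-142. Relative to miR-142-5p, a denominator added after the data were seen, miR-342-3p was at 0.718 to 1.28 in cSCC, against 1.12 to 3.22 in healthy skin (log2 difference -0.95 ± 0.31, exact p = 0.0238, 0.0737 adjusted over 96 ratio tests). Against hyperplastic skin it was lower in cSCC by -1.78 ± 0.32 (exact p = 0.00794, adjusted p = 0.0331). miR-155-5p relative to miR-142-5p was lower in cSCC than in papilloma by -1.75 ± 0.36 (exact p = 0.00794, adjusted p = 0.0331).

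**Figure D4:**
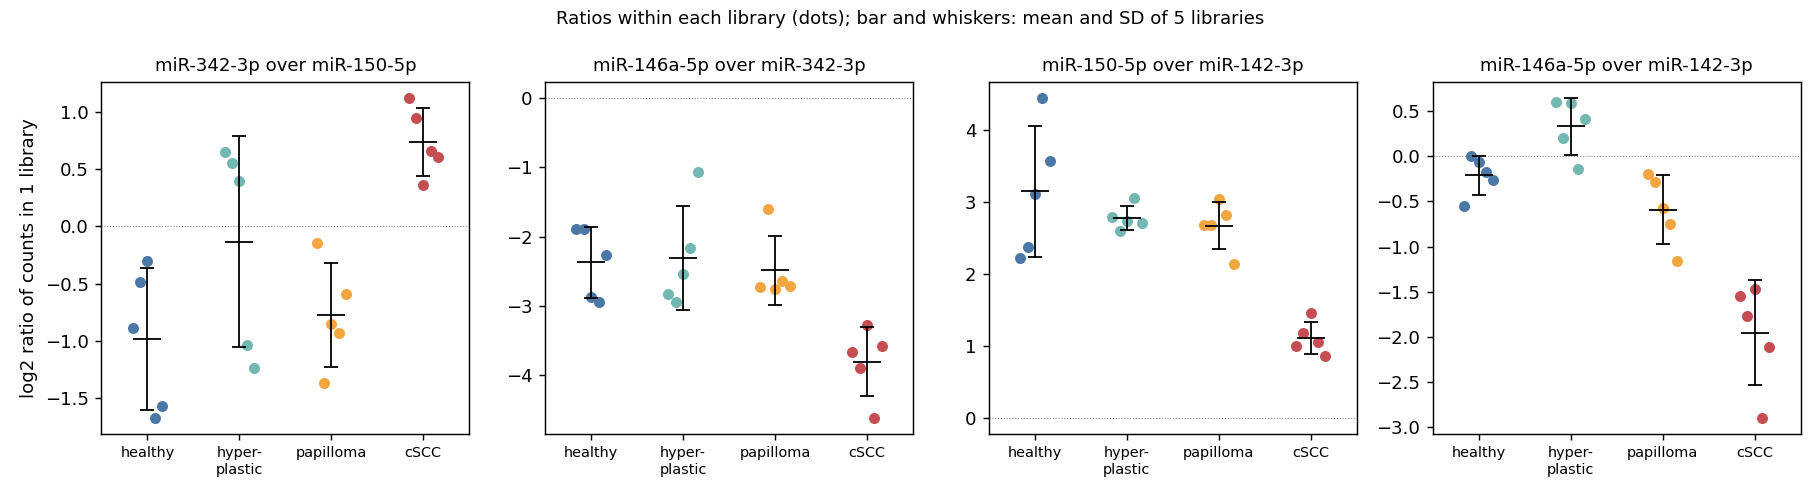
Log2 ratios of counts within each library (dots) for 4 pairs, with mean and SD of 5 libraries; the dotted line marks equal counts. The 5 carcinomas lie apart from healthy skin and papillomas in each panel, above them for miR-342-3p over miR-150-5p and below them in the other 3.

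Other miRNAs of leukocytes and of inflammation moved in more than 1 direction, as did all tested miRNAs. In the list of 6 pan-leukocyte and myeloid arms, 1 rose, 1 fell and 4 did not pass in cSCC against healthy skin. Of all tested miRNAs 26.2% rose and 21.3% fell there, and no test compared lists with these shares. miR-223-3p, of neutrophils and other myeloid cells, rose to 69580 ± 24100 CPM in cSCC, against 18830 ± 4420 CPM in healthy skin (SD, n = 5 each; log2 fold change 1.89 ± 0.36, edgeR adjusted p = 0.000173). miR-511-3p, from the macrophage mannose receptor gene Mrc1, fell by -1.86 ± 0.43 (edgeR adjusted p = 0.001, and -1.16 with adjusted p = 0.0214 among abundant miRNAs). The other arms of these 2 precursors, with fewer counts, did not pass. miR-223-5p had 0.13 ± 0.36 (edgeR adjusted p = 0.783) and miR-511-5p -0.14 ± 0.32 (adjusted p = 0.74). miR-142-5p averaged 2040 ± 976 CPM in cSCC and 1345 ± 570 CPM in healthy skin (0.60 ± 0.34, adjusted p = 0.143; 1.32 and adjusted p = 0.00222 among abundant miRNAs). Against papilloma, 2 of the 6 rose in cSCC (miR-142-5p by 1.65 ± 0.35, adjusted p = 0.00239, and miR-223-3p by 1.53 ± 0.36, adjusted p = 0.00599) and 1 fell. Of all tested miRNAs 6.82% rose and 4.71% fell in that comparison.

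Of 5 further miRNAs that NF-kB or Toll-like receptor signals induce in other work, 4 rose in cSCC against healthy skin (26.2% of all tested miRNAs). In papilloma against healthy skin 3 rose (24% of all), and 0 fell in either comparison (21.3% and 20.7% of all). Examples of rises in cSCC against healthy skin are miR-21-5p (2.81 ± 0.36, edgeR adjusted p = 6.26e-07) and miR-132-3p, induced by CREB and by Toll-like receptor ligands (1.32 ± 0.33, adjusted p = 0.00197). miR-9-5p of this list did not pass (0.081 ± 0.515, edgeR adjusted p = 0.908). miR-146a-5p, which NF-kB also induces, fell in that comparison, and the cause was not tested. Of 6 miRNAs with roles in lymphocyte development, 4 fell and 0 rose in cSCC against healthy skin (21.3% and 26.2% of all tested miRNAs). The 4 that fell were all of the miR-181 family. miR-181a-5p, which tunes T cell receptor signalling, fell by -1.41 ± 0.30 (edgeR adjusted p = 0.000447). The most abundant of the list, miR-17-5p and miR-92a-3p of the miR-17-92 cluster, had 0.41 ± 0.30 (adjusted p = 0.258) and 0.29 ± 0.24 (adjusted p = 0.337). Among abundant miRNAs 3 of the 6 fell and these 2 rose (25.9% and 36.5% of all 293). Reads of miR-181c-5p and miR-181d-5p may be shared.

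Markers of other cells also differed between the groups, and their part in the results for miR-150 and miR-146a was not tested. Striated muscle miRNAs (4 of 4 measured) summed to 1561 to 3616 CPM in cSCC and 1753 to 9174 CPM in papillomas, against 19320 to 77330 CPM in healthy skin. Mesenchymal arms of miR-199a and miR-214 summed to 5677 to 17280 CPM in cSCC, 12120 to 17480 CPM in papillomas and 19940 to 50020 CPM in healthy skin. Keratinocyte miRNAs (4 of 4) summed to 71300 to 138000 CPM in cSCC, against 146800 to 241100 CPM in healthy skin. Erythroid miRNAs, a measure of blood in the sample, overlapped, with 2907 to 7935 CPM in cSCC and 2265 to 7029 CPM in healthy skin. The 6 leukocyte arms, most of whose sum is miR-223-3p, summed to 47070 to 108200 CPM in cSCC and 15490 to 27800 CPM in healthy skin. No member of these lists was at 0 in any library.

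In cSCC against healthy skin 26.2% of all tested miRNAs rose and 21.3% fell, and 36.5% and 25.9% of the 293 abundant ones. By test, 4 of 4 striated muscle miRNAs fell in this comparison, among them miR-1a-3p (-4.08 ± 0.53) and miR-133a-3p (-4.57 ± 0.47). Both smooth muscle miRNAs fell, miR-145-5p by -2.10 ± 0.28 and miR-143-3p by -2.31 ± 0.31, and so did both endothelial ones, miR-126-5p by -1.08 ± 0.25 and miR-126-3p by -1.30 ± 0.32, though 0 of these 2 passed among abundant miRNAs. Of the keratinocyte miRNAs 3 of 4 fell, with miR-203-3p at -1.83 ± 0.26 and miR-205-5p at -0.69 ± 0.24. Among abundant miRNAs 2 of 4 fell, miR-205-5p did not pass (0.03, edgeR adjusted p = 0.888) and miR-205-3p rose (1.22, adjusted p = 0.000994). Of the mesenchymal arms 2 of 4 fell, miR-199a-5p by -1.61 ± 0.32 and miR-199a-3p by -1.18 ± 0.31. Among abundant miRNAs miR-199a-5p fell (-0.88, edgeR adjusted p = 0.00963) and miR-199a-3p did not pass (-0.48, adjusted p = 0.134). miR-214-3p was called higher there (0.61, edgeR adjusted p = 0.0222). Of the erythroid miRNAs 2 of 5 fell, while the most abundant, miR-451 and miR-144-3p, had 0.01 ± 0.43 and 0.44 ± 0.58. Among abundant miRNAs 0 of 3 fell and 1, miR-144-5p, rose (1.80, edgeR adjusted p = 0.00551).

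The miRNAs whose levels ran most like each member were found by Pearson correlation of log2 CPM over the 20 libraries with the abundant miRNAs. The libraries share the 4 groups and the scaling, so these values are a description. miR-150-5p was most like miR-326-3p (r = 0.90), miR-5127 (0.89), miR-199a-5p (0.89), miR-328-3p (0.85) and miR-339-5p (0.84). miR-146a-5p was most like miR-199b-5p (0.92), miR-99a-5p, miR-125b-2-3p, miR-100-5p and miR-101c (0.91 each). After the group means were taken out, miR-150-5p kept r = 0.82 with miR-326-3p and with miR-199a-5p, and miR-146a-5p 0.78 with miR-199b-5p. miR-342-3p was most like miR-574-3p (0.80), miR-10a-5p and miR-140-3p (0.78 each), miR-103-3p and miR-324-3p (0.75 each), but with the scaling of abundant miRNAs its r with these was 0.18 to 0.36. miR-155-5p had lower values, led by miR-582-3p (0.64), miR-320-3p (0.63), miR-582-5p (0.57), miR-211-5p (0.54) and miR-872-5p (0.51).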

How the data were processed

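The authors deposited raw read counts, whole numbers for each small RNA feature in each library. Per the labels' protocols, total RNA was extracted with a Qiagen miRNeasy kit, and libraries made with a NEBNext set for SOLiD were size-selected on acrylamide gels. Per the submitters' processing notes the build was mm9. Not given in the sources used here are the aligner, the counter and how reads with several matches were treated.

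Mature miRNA counts were filtered with filterByExpr (850 of 1137 kept), scaled with TMM (factors 0.637 to 1.665) and fitted with 1 term per group over the 20 libraries with edgeR 4.0.16 (limma 3.58.1, R 4.3.3), and DESeq2 1.42.0 was run as an alternative. The edgeR step was tested on simulated counts. SEs derive from the F statistic, and tests were two-sided. Described are all arms that the name rule selects, the 2 most abundant miRNAs of each further list, and the 5 closest by correlation; any other miRNA was named with its values known. The members, lists and tests were chosen with earlier results of these data known. No 2 libraries of a group agreed within sampling noise. Alternatives were other scalings and filters, DESeq2, a replicate block and each library left out in turn.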

Additional observations from a re-analysis of the deposited data

Results flagged for a closer look

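Libraries far from the other 4 of their group were looked for in 76 sets of 5 values (CPM of the 8 tested arms, and ratios), where chance flags about 1 in 20; 8 sets had such a library. For miR-146a-5p, hyperplastic 8 stood at 993.2 CPM, with the next library at 395.2, and papilloma 3 at 437.3 CPM, with the next at 227.5. Papilloma 1 had 41.7 CPM of miR-146b-3p, with the next library at 23.34.

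In log2 ratios, hyperplastic 7 was lowest of its group for miR-146a-5p over miR-150-5p at -3.19. Papilloma 3 was highest for miR-146a-5p over miR-342-3p at -1.60. Hyperplastic 8 was lowest for miR-155-5p over miR-342-3p at -7.44 and over miR-146a-5p at -6.37, where the next library was at -2.96. Healthy 4 was highest for miR-155-5p over miR-146a-5p at -2.28. Hyperplastic 8 thus combined the highest miR-146a-5p level of all 20 libraries with the lowest miR-155-5p level.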

How the results depend on the processing

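Tests of members depended mostly on scaling. With no low-count filter, miR-150-5p had log2 fold changes of -1.53 in papilloma and -2.41 in cSCC against healthy skin. Among abundant miRNAs these were -0.49 and -1.42. With DESeq2 size factors and with DESeq2 itself, none of the 30 fold changes of the 5 major arms changed its sign or its side of the threshold. Among abundant miRNAs the number of members called was 1 in papilloma against healthy skin (higher, where the first fit called 3 lower), 1 in cSCC against papilloma (0 in the first fit), 0 in papilloma against hyperplastic skin (2) and 1 in cSCC against hyperplastic skin (4). With mature miRNA totals in place of TMM factors it was 2, 0 and 2 in cSCC against papilloma, papilloma against hyperplastic skin and cSCC against hyperplastic skin. In papilloma against healthy skin the fit with totals called 2 higher and 0 lower. These were miR-146b-5p (0.83, edgeR adjusted p = 0.0259) and a minor arm. Without hyperplastic 7 and 8, a setting chosen after seeing the data that removes the highest miR-150-5p libraries of the group, 1 member (miR-150-5p) was called in hyperplastic against healthy skin and 2 in cSCC against hyperplastic skin. The cause was not tested.

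The meaning of the replicate numbers in the titles is not stated, and the samples were not treated as paired. Of 17 pairs with the same number, 5 had a correlation of deviations over 0.1 (-0.219 to 0.421). Only 2 of 20 libraries correlated best with a library of their own number. Such correlations cannot exclude that samples with the same number belong together. With the replicate block 1 member was called in papilloma against hyperplastic skin, in place of 2: miR-342-3p (adjusted p = 0.0547) and miR-146a-5p (0.151) lost their calls, and miR-155-5p was called (-1.69, adjusted p = 0.0162). The count was 2 in place of 3 in papilloma against healthy skin and 3 in place of 4 in cSCC against hyperplastic skin, where miR-150-5p lost its call in both (adjusted p = 0.0562 and 0.255). It was 0, 2 and 0 with and without the block in hyperplastic and cSCC against healthy skin and in cSCC against papilloma.

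Leaving out 1 library at a time gave 0 to 0 members in hyperplastic against healthy skin, 2 to 3 in papilloma against healthy skin, 2 to 3 in cSCC against healthy skin, 0 in cSCC against papilloma, 1 to 3 in papilloma against hyperplastic skin and 1 to 4 in cSCC against hyperplastic skin. Filter and scaling were redone in each, which left 859 to 901 miRNAs. The falls of miR-150-5p (-2.46 to -1.88) and miR-146a-5p (-2.17 to -1.64) in cSCC against healthy skin kept their calls in each of them, and so did that of miR-146a-5p in cSCC against hyperplastic skin (-2.23 to -1.32).

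Signs turned in values that the fit of all 850 miRNAs did not call. Hyperplastic against healthy skin gave 0.11 for miR-342-3p with totals, and for miR-146a-5p -0.26 with the replicate block, -0.54 without hyperplastic 7 and 8 and -0.52 to 0.18 without 1 library. Papilloma against healthy skin gave -0.049 for miR-146b-5p with no low-count filter, -0.073 to 0.391 without 1 library, and 0.32 for miR-155-5p with totals. cSCC against healthy skin gave 0.35 for miR-342-3p and for miR-146b-5p among abundant miRNAs, and cSCC against hyperplastic skin 0.38 for miR-342-3p. cSCC against papilloma gave -0.386 to 0.034 for miR-155-5p without 1 library. Papilloma against hyperplastic skin gave for miR-150-5p 0.26 with totals, 0.36 among abundant miRNAs, 0.26 with the block, 0.50 without hyperplastic 7 and 8 and -0.62 to 0.10 without 1 library, and for miR-146b-5p 0.18 with totals and 0.35 among abundant miRNAs.

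The 12 ratio differences past the adjusted threshold had no overlap of groups. Leaving out 1 library therefore could not raise their exact p above 0.0159, and that step does not test them. Adding 1 count in place of 0.5 moved no ratio across 0.05. Counts were lowest for miR-155-5p and the minor arms, and whether depth or the spread between libraries limits their tests was not tested.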

Other observations

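The arms of miR-142, used as a reference for blood cells, did not keep the same ratio to each other. The log2 ratio of miR-142-5p over miR-142-3p was higher in cSCC by 1.01 ± 0.19 (SE) against papilloma and by 0.99 ± 0.27 against hyperplastic skin (two-sided exact permutation test, p = 0.00794, 0.0331 adjusted over 96 ratio tests each), with no overlap of the 5 libraries of each group. Against healthy skin the difference in cSCC was 0.63 ± 0.32 (exact p = 0.103, adjusted p = 0.225). Relative to miR-142-5p, chosen as a denominator after the data were seen, miR-150-5p was lower in cSCC by -2.68 ± 0.15 and miR-146a-5p by -2.39 ± 0.40 against healthy skin (exact p = 0.00794, adjusted p = 0.0331 each). For miR-342-3p the difference was -0.95 ± 0.31 (exact p = 0.0238, adjusted p = 0.0737) and for miR-155-5p -1.10 ± 0.56 (exact p = 0.0794, adjusted p = 0.186).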
